A study of Mus musculus with 12 samples.

Results

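The Cyp4 family was examined in the livers of mice fed a diet that causes steatohepatitis, with and without metformin. The members were fixed as 9 genes, Cyp4a10, Cyp4a12a, Cyp4a12b, Cyp4a14, Cyp4a31, Cyp4f13, Cyp4f14, Cyp4f15 and Cyp4v3, and a probe set belonged to them when the array's annotation gave one of these symbols, alone or beside a close paralog. Of the 45101 probe sets on the array, 10 named a member, and they covered 8 of the 9 genes; no probe set named Cyp4a12b, so it has no value here. Each gene was read from its probe set of highest mean signal. This left 7 chosen probe sets, because Cyp4a10 and Cyp4a31 shared their brightest one, and all 7 were bright enough to be tested. The 3 remaining probe sets, a pair that named Cyp4a31 alone and a dimmer one of Cyp4v3, are described beside them.

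All animals were C57BL/6 mice, entered the feeding period at 8 weeks of age and were fed for 8 weeks, and total RNA of the liver was hybridised to 1 array per mouse. The NC group (n = 4) received normal chow. The MCD+HF group (n = 4) received a methionine- and choline-deficient diet that was also rich in fat, and the MCD+HF+Met group (n = 4) received that same food with 0.1% metformin mixed into it for the whole period. Metformin is a biguanide drug used against type 2 diabetes. The sex of the animals was not given in the labels, and how much food or drug each mouse took in is not known per array. Values are array signals on a linear scale on which every array has a mean of 100 after leaving out 2% in each tail. Changes are differences in log2(signal + 10), which understate the change of dim probe sets, and "called" means an adjusted p under 0.05 in limma with adjustment over all 22832 probe sets tested.

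Enzymes of the Cyp4 family are microsomal cytochrome P450s that hydroxylate the methyl end of fatty acids. This omega-hydroxylation opens a side route of fatty acid breakdown, in which alcohol and aldehyde dehydrogenases turn the product into a dicarboxylic acid that peroxisomes then shorten. In rodent liver Cyp4a10 and Cyp4a14 are textbook targets of the fatty acid receptor PPAR alpha, whereas Cyp4a12a is known as an enzyme of male mice that makes 20-HETE from arachidonic acid. Members of the Cyp4f group inactivate leukotriene B4 and other eicosanoids, and Cyp4v3 is the mouse counterpart of human CYP4V2, a fatty acid hydroxylase whose loss causes a crystalline disease of the retina.

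The MCD+HF diet moved the members in opposite directions. Cyp4a14 and, on its own probe sets, Cyp4a31 rose, Cyp4a12a, Cyp4f13, Cyp4f14, Cyp4f15 and Cyp4v3 fell, and the probe set shared by Cyp4a10 and Cyp4a31 was not called. Of the 7 chosen probe sets, 1 was called higher, 5 lower and 1 was not called, whereas 43.8% of all tested probe sets were called with the diet, 25.4% higher and 18.4% lower. The 2 groups did not overlap for 6 of the 7, against 40.6% of all tested probe sets. The median change of the 7 was -1.41, beside 0.05 over all 11099 genes tested. Adding metformin to the diet left a single call, a further fall of Cyp4a12a.

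**Figure D1:**
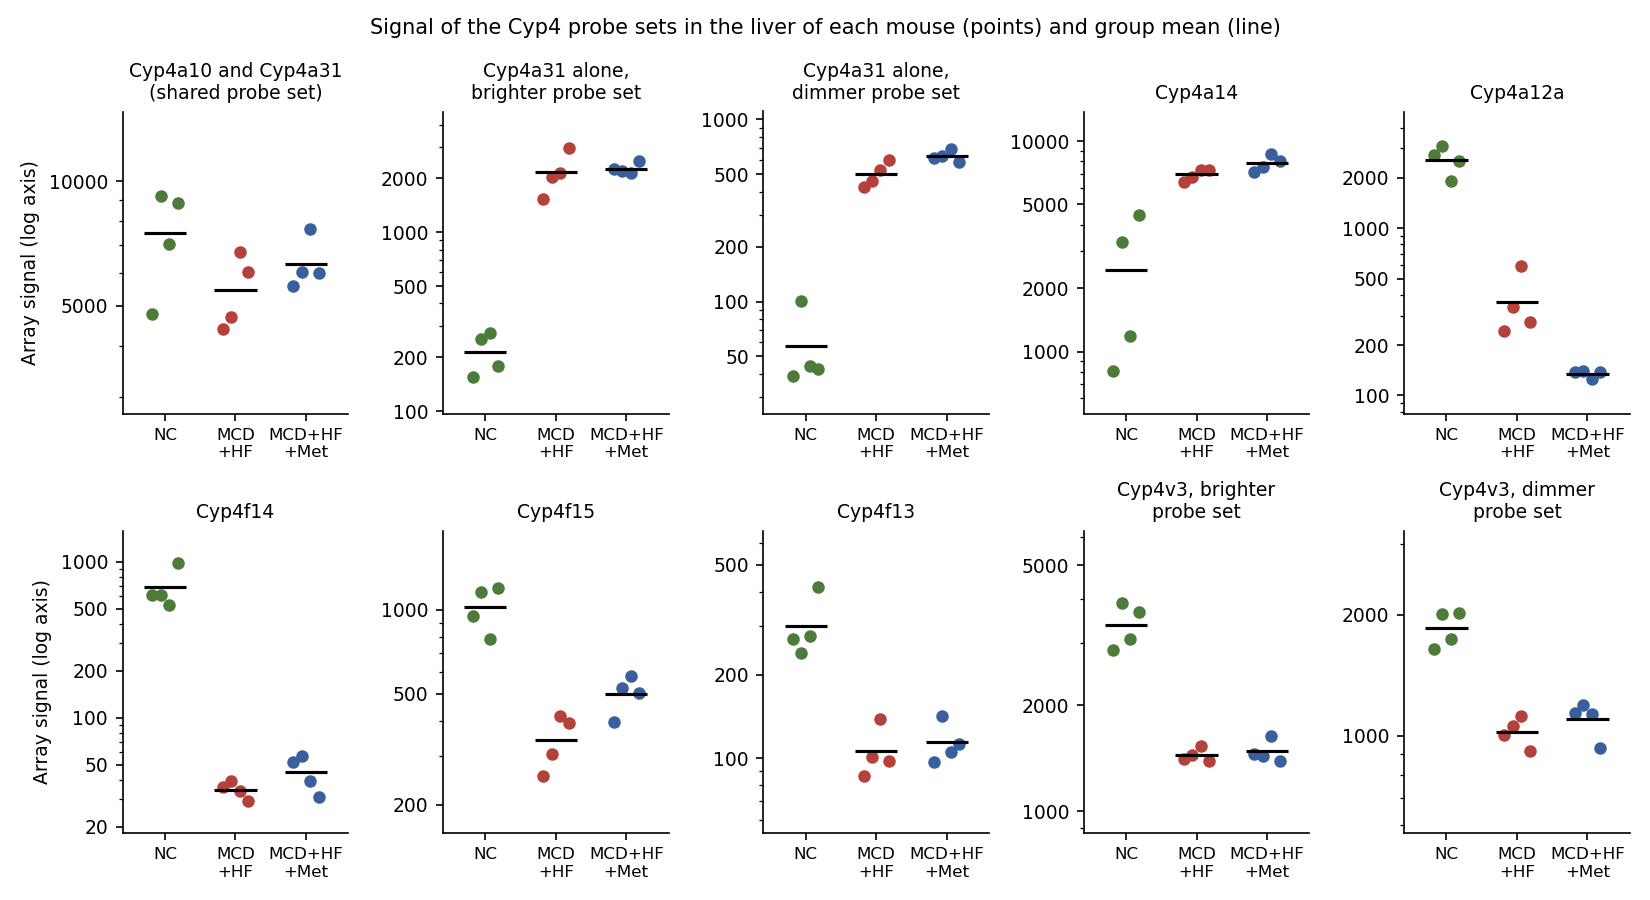
Array signal of the 10 Cyp4 probe sets in each mouse, 1 panel per probe set, on a log axis whose range differs between panels. Points are single livers, in the order of their replicate numbers, and lines are group means (n = 4 mice per group). Cyp4a14 and both probe sets of Cyp4a31 alone stand higher in all mice on either MCD+HF diet than in all NC mice, Cyp4a12a falls in 2 steps to 124.8 to 139.6 with metformin, and the Cyp4f genes and Cyp4v3 stand lower on both diets than on chow.

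Cyp4a14 was the member that rose on its chosen probe set. Its signal was 814, 3331, 1184 and 4432 in the NC mice, 6395, 6787, 7319 and 7315 in the MCD+HF mice, and 7150, 7564, 8634 and 8002 in the MCD+HF+Met mice. The chow livers were widely scattered, with the highest 5.45 times the lowest, while the livers on the MCD+HF diet lay within 1.14 times of each other and all above the highest chow liver. The group means were 2440 ± 1730 and 6954 ± 449 (SD, n = 4 each), a change of 1.83 with the diet (SE 0.37, limma adjusted p = 8.6e-04). With metformin the mean was 7837 ± 634 (SD, n = 4), 0.17 above MCD+HF with a 95% interval from -0.61 to 0.96 (limma adjusted p = 0.854). That interval rests on a variance pooled over all groups, so the scatter of the chow livers widened it. With only the MCD+HF and MCD+HF+Met groups in the fit, the change was still not called (limma adjusted p = 0.295). The order was thus NC below both groups on the MCD+HF diet, whose ranges overlapped.

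The probe set that names both Cyp4a10 and Cyp4a31 did not follow Cyp4a14, although Cyp4a10 is the classic partner of Cyp4a14 among PPAR alpha targets. It read 4787, 9230, 7052 and 8878 in NC, 4390, 4691, 6745 and 6038 in MCD+HF, and 5594, 6039, 7659 and 5993 in MCD+HF+Met livers. All 3 groups overlapped, and the low NC value, 4787 in replicate 1, lay within the range of the MCD+HF mice. The change was -0.43 with the diet (SE 0.18, limma adjusted p = 0.0712) and 0.22 with metformin (SE 0.18, limma adjusted p = 0.556), and neither was called. The direction of the first value was not stable, since it was 0.17 (adjusted p = 0.422) after quantile normalization and -0.63 (adjusted p = 0.00455) without NC replicate 1. The value without MCD+HF replicate 3 was -0.54 (adjusted p = 0.0374).

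The pair of probe sets that name Cyp4a31 alone gave a different picture from the shared one. The brighter read 155, 255, 273 and 178 in NC, 1534, 2046, 2151 and 2959 in MCD+HF, and 2258, 2204, 2131 and 2494 in MCD+HF+Met livers, and the lowest liver on either MCD+HF diet stood 5.62 times above the highest chow liver. Its change with the diet was 3.27 (SE 0.18, limma adjusted p = 2.4e-09). The dimmer read 38.9, 101.3, 44.5 and 42.6 in NC, 426, 459, 526 and 597 in MCD+HF, and 615, 629, 690 and 583 in MCD+HF+Met livers, and changed by 3.01 (SE 0.20, limma adjusted p = 1.6e-08). With metformin they changed by 0.10 (adjusted p = 0.821) and 0.33 (adjusted p = 0.403), and the groups overlapped for both.

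Cyp4a31 is a close relative of Cyp4a10, and the disagreement between these probe sets was tested within arrays. The shared probe set was subtracted from each of the other pair on the log2 scale, and the diet's effect on the difference was 3.70 (SE 0.24) and 3.44 (SE 0.24), each with an exact two-sided permutation p of 0.0286, the smallest that 4 against 4 arrays allow, and 0.0762 after adjustment over 8 such tests. These tests were added after the values had been seen. Each p was fixed in advance, since the gap of either Cyp4a31 probe set between the groups exceeded the shared one's whole log2 range. It adds no test to the changes of the probe sets themselves. An array signal cannot tell how much of the shared signal comes from either gene, so the response of Cyp4a10 by itself is not known from these arrays. The probe sets of Cyp4a31 alone differed by 0.26 from each other in their change with the diet (exact two-sided permutation p = 0.371).

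Cyp4a12a, the arachidonic acid hydroxylase typical of male mice, fell with the diet and fell again with metformin. Cyp4a12b is a nearly identical copy beside it, and although the annotation gives Cyp4a12a alone, the probe set may read both. It read 2745, 3119, 1923 and 2512 in NC, 244, 340, 597 and 273 in MCD+HF, and 138, 140, 125 and 139 in MCD+HF+Met livers. The 3 groups did not overlap. Their means were 2575, 364 and 135 with SDs of 501, 161 and 7.0, which are 19.5%, 44.2% and 5.18% of the mean. The diet's change was -2.86 (SE 0.21, limma adjusted p = 4.3e-08), a ratio of the NC to the MCD+HF mean of 7.08. Metformin's change was -1.28 (SE 0.21, limma adjusted p = 0.00452), a ratio of the means of 2.69, and the NC mean was 19.0 times that of the metformin group. Without MCD+HF replicate 3, the liver with 597, metformin's change was -1.01 and still called. At an unadjusted p under 0.05 and over 1.5-fold, the methods' t-test also called it lower with metformin (unadjusted p = 0.00396). After a Benjamini-Hochberg adjustment, which the methods do not apply, that p was 0.123. The methods also require a change call from the array software, which was not used here. The paper names CYP4A12 among genes that fell by 1.5-fold with metformin. The 3'/5' signal ratio of beta-actin, which rises as RNA degrades, was 1.46 to 1.62 in MCD+HF and 1.62 to 1.86 in MCD+HF+Met livers, with no overlap before rounding, and 1.54 to 1.88 in NC livers. The same ratio for Gapdh was 0.686 to 0.715 in MCD+HF livers and overlapped with 0.704 to 0.804 after metformin. Their part in the metformin result was not tested. Among the 7 chosen probe sets it was the 1 called with metformin, where 3.44% of all tested probe sets were called, 1.24% higher and 2.21% lower, and it was also the 1 without overlap, where 11.8% of all tested probe sets had none.

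**Figure D2:**
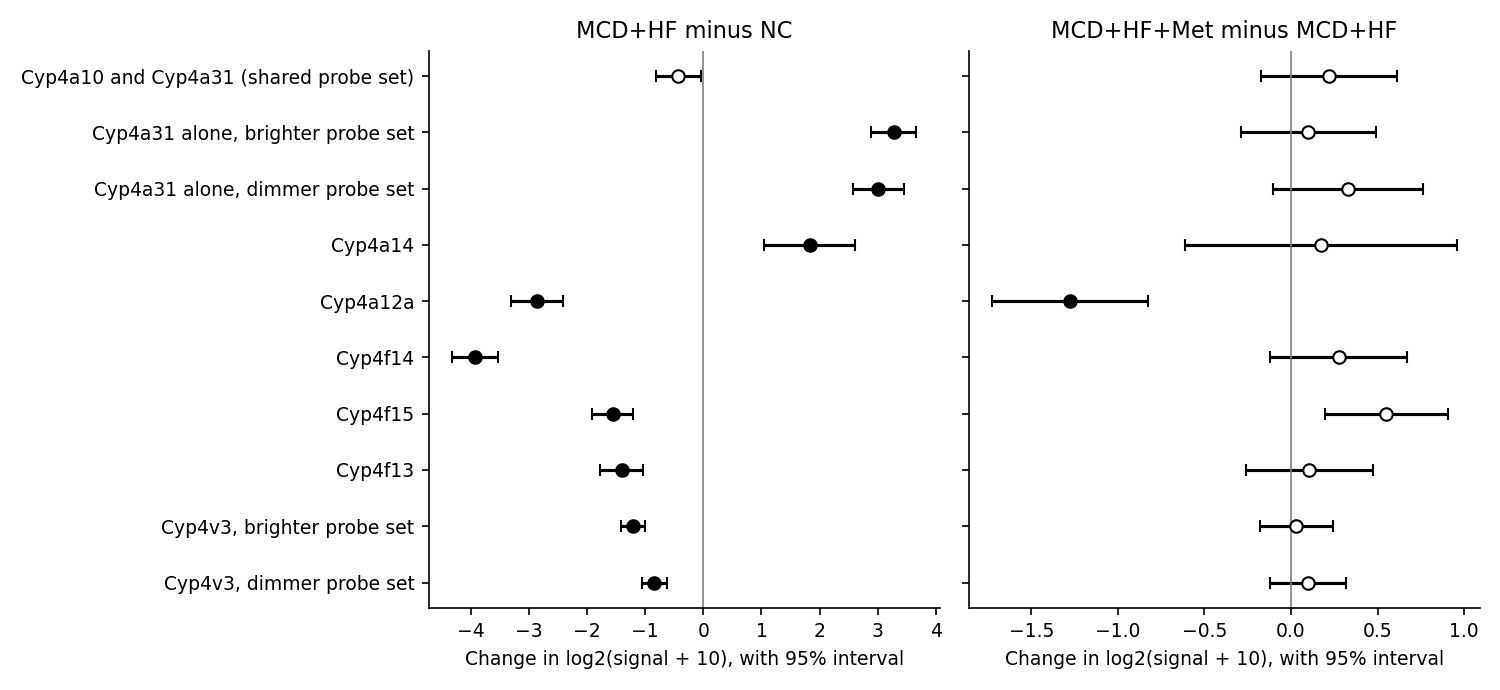
Change in log2(signal + 10) of each Cyp4 probe set with the MCD+HF diet (left) and with metformin added to it (right), as points with 95% intervals from limma (4 mice per group, 9 residual degrees of freedom). Filled points were called at an adjusted p under 0.05 and open points were not, and the axes of the panels differ. On the left Cyp4f14 lies lowest at -3.93 and Cyp4a31 alone highest at 3.27, and on the right only Cyp4a12a is filled, at -1.28.

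The Cyp4f members fell together with the diet but by unequal amounts. Cyp4f14, known as a leukotriene B4 omega-hydroxylase, read 616, 613, 528 and 987 in NC livers, 36.2, 39.2, 33.7 and 29.3 in MCD+HF livers, and 52.2, 56.5, 39.1 and 31.2 in MCD+HF+Met livers. The lowest chow liver was 13.5 times the highest MCD+HF liver. The change was -3.93 (SE 0.19, limma adjusted p = 3.7e-10), the largest of any member, and the ratio of the means was 19.8. With metformin it changed by 0.27 (limma adjusted p = 0.452), with an interval from -0.12 to 0.67.

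Cyp4f15 and Cyp4f13, which also act on leukotrienes and related eicosanoids, fell less. Cyp4f15 read 948, 1159, 788 and 1199 in NC, 254, 303, 417 and 394 in MCD+HF, and 398, 524, 579 and 502 in MCD+HF+Met livers, a change of -1.56 with the diet (SE 0.17, limma adjusted p = 2.1e-06). All livers on either MCD+HF diet lay below all chow livers, and 3 of the 4 metformin livers lay above the highest MCD+HF liver. The metformin change was 0.55 (SE 0.17, interval 0.20 to 0.91) and missed the threshold (unadjusted p = 0.00471, limma adjusted p = 0.0818). Cyp4f13 read 270, 240, 277 and 414 in NC, 86.3, 101.3, 139.2 and 97.9 in MCD+HF, and 96.8, 142.7, 105.8 and 112.6 in MCD+HF+Met livers. Its change was -1.41 with the diet (SE 0.17, limma adjusted p = 8.9e-06) and 0.11 with metformin (limma adjusted p = 0.795).

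Cyp4f15, Cyp4f14 and Cyp4f13 are neighbours in this order on chromosome 17, and the bases just before their start sites are shown because these genes fell together. The windows of RefSeq transcripts on the GRCm38.p6 assembly held 4 of the 9 members, and none of the Cyp4a genes. For Cyp4f14, which has 4 listed starts, the most upstream was taken. The 100 bases before each start are given from 5' to 3' along the gene, at chr17:32947362-32947461 on the minus strand, chr17:32917357-32917456 on the minus strand and chr17:32685559-32685658 on the plus strand, with matches to the searched motifs in capitals.
Cyp4f13: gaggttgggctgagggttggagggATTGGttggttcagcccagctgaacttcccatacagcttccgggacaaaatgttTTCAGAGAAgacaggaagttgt
Cyp4f14: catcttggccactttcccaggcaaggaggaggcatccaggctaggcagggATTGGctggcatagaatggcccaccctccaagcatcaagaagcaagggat
Cyp4f15: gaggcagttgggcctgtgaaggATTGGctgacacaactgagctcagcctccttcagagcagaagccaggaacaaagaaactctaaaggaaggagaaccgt

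Each of these held ATTGG, the CCAAT box read on the opposite strand, at -76, -50 and -78 from the start of Cyp4f13, Cyp4f14 and Cyp4f15. The letters occur, on either strand, in 37.4% of all 32851 windows of 300 bases that span a start site. The second run of capitals in Cyp4f13, from -22 to -14, is TTCNNNGAA, the element bound by STAT factors, which 8.30% of windows held. AGGTCA, the core letters bound by nuclear receptors (16.3% of windows), its direct repeat with 1 base between the copies (0.0396%) and TATAAA (13.6%) were not found in the windows of these members or of Cyp4v3. Both strands were searched for each motif, and AGGTCA lies within its repeat. A match is a description of the letters only.

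Cyp4v3 fell on both of its probe sets. The brighter read from 2875 to 3914 in NC livers (median 3388), from 1392 to 1535 in MCD+HF livers (median 1431) and from 1392 to 1636 in MCD+HF+Met livers (median 1448). Every chow liver lay above all others, and the livers on the MCD+HF diet covered a narrow range, 1.1-fold from lowest to highest. The change was -1.21 with the diet (SE 0.10, limma adjusted p = 1.3e-07) and 0.03 with metformin (interval -0.18 to 0.24, limma adjusted p = 0.904). The dimmer probe set changed by -0.85 (SE 0.10, limma adjusted p = 7.8e-06) and 0.10 (limma adjusted p = 0.658).

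The metformin livers were also compared with normal chow. Of the 7 chosen probe sets 1 was called higher and 5 lower, where 39.7% of all tested probe sets were called, 22.2% higher and 17.5% lower. The groups did not overlap for 6 of the 7, against 34.8% of all tested probe sets. Cyp4a14 stood 2.00 above NC (SE 0.37, limma adjusted p = 4.8e-04), and Cyp4a12a differed from it by -4.13 (adjusted p = 1.2e-09). Cyp4f14, Cyp4f13, Cyp4v3 and Cyp4f15 differed from NC by -3.65, -1.30, -1.18 and -1.01. This comparison shares its arrays with the other two and adds no independent test of them.

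Members were set against each other within each array in 7 pairs under 2 comparisons, with exact two-sided permutation tests in which the smallest possible p is 0.0286. All 7 pairs differed in their response to the diet (p = 0.0286 by the exact permutation test, 0.04 after adjustment over the 14 tests). Cyp4a14 rose relative to the shared Cyp4a10 and Cyp4a31 probe set by 2.26 (SE 0.41) and relative to Cyp4a12a by 4.69 (SE 0.60). For Cyp4a14 and Cyp4a12a the p was fixed in advance, as the first rose and the second fell without overlap of the groups. It was also fixed for Cyp4f14 with Cyp4f13, Cyp4f15 and Cyp4v3, and for Cyp4a12a with the shared probe set. In these, the first-named member's gap between the groups was wider than the whole log2 range of the other. Such a p adds no test to the members' own changes. Cyp4f14 fell by 2.52 (SE 0.18) more than Cyp4f13, by 2.37 (SE 0.25) more than Cyp4f15 and by 2.72 (SE 0.18) more than Cyp4v3. The gap between Cyp4a12a and Cyp4f14, 1.07 (SE 0.36), was the least secure, as it became 0.62 with an adjusted p of 0.16 when 32 instead of 10 was added to the signal. It was 0.80 to 1.21, with an adjusted p of 0.08, without any one NC array or without MCD+HF replicate 3.

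With metformin, only the 3 pairs that contain Cyp4a12a differed by the same test. Cyp4a12a fell by 1.45 (SE 0.27) relative to Cyp4a14, by 1.5 (SE 0.24) relative to the shared Cyp4a10 and Cyp4a31 probe set and by 1.55 (SE 0.32) relative to Cyp4f14. For the pairs with Cyp4a14 and Cyp4f14, the gap of Cyp4a12a between the groups was wider than the whole log2 range of the other member. Their p was thus fixed by the fall of Cyp4a12a and adds no test to it. The remaining 4 pairs gave differences of -0.28 to 0.17 with adjusted p from 0.364 to 0.686, which does not show that they responded alike.

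**Figure D3:**
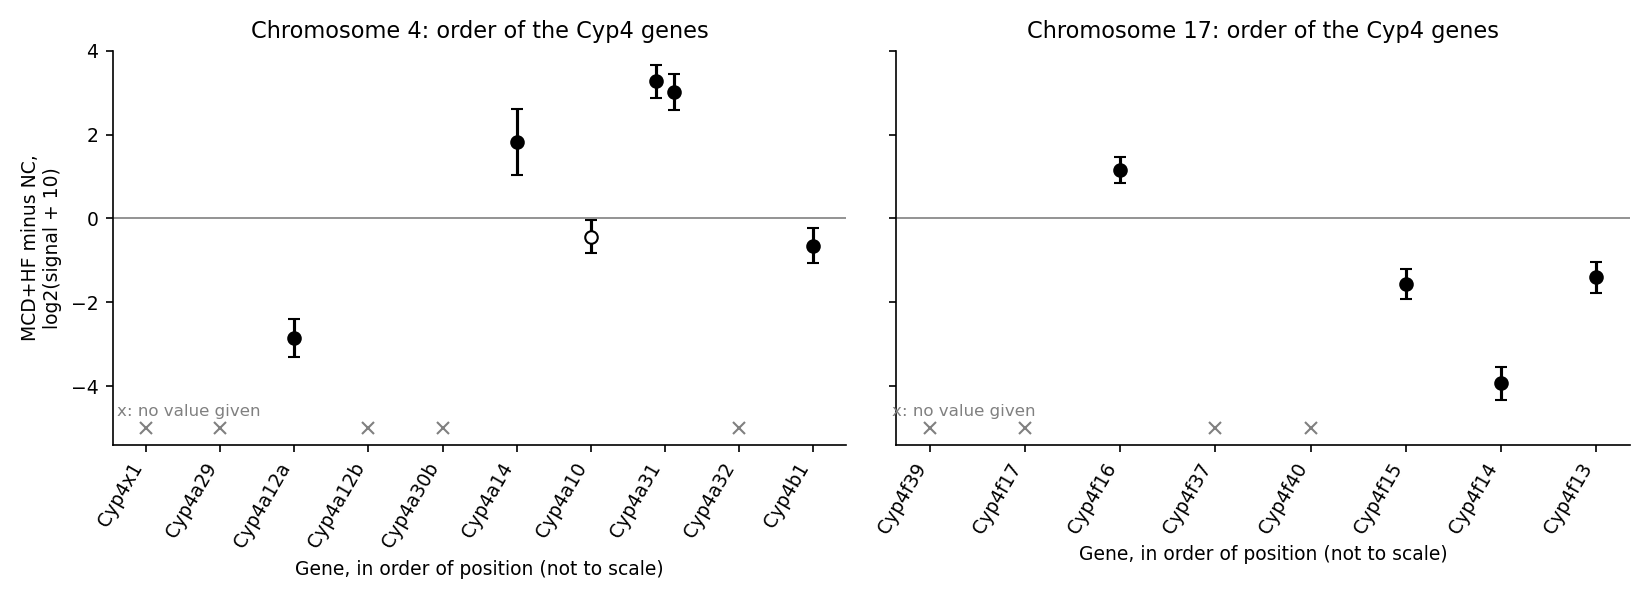
Change in log2(signal + 10) with the MCD+HF diet of the Cyp4 genes on chromosomes 4 and 17, in order of their position and not to scale, with 95% intervals from limma. Filled points were called, open points were not, and a cross at the foot marks a gene for which no value is given. Cyp4a10 is shown by the probe set that also names Cyp4a31, and Cyp4a31 by the pair that name it alone. Changes of both signs lie within one row of genes on chromosome 4, with genes that have no value or were not called between them, from -2.86 for Cyp4a12a to 3.27 for Cyp4a31, and on chromosome 17 Cyp4f16 at 1.16 stands apart from Cyp4f15, Cyp4f14 and Cyp4f13.

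Genes that rose and genes that fell lay within the same row of genes. On chromosome 4 the order is Cyp4a12a, Cyp4a12b, Cyp4a14, Cyp4a10 and Cyp4a31, with a few relatives between and around them, and the lowest and the highest changes of the Cyp4a genes lie within this one row. Of 11 other Cyp4 genes of the mouse, 5 had a probe set of their own and 2 were bright enough to be tested. Cyp4f16, a relative of the leukotriene hydroxylases, rose from 20.8 ± 2.20 in NC livers to 58.6 ± 5.95 with the diet and 71.7 ± 13.5 once metformin was added (SD, n = 4 each), a change of 1.16 with the diet (SE 0.15, limma adjusted p = 1.1e-05). Cyp4b1, which hydroxylates short fatty acids and foreign compounds, fell from 283 ± 40.2 to 182 ± 56.4 and 159 ± 42.6, a change of -0.64 with the diet (SE 0.20, limma adjusted p = 0.0148). Neither was called with metformin.

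Cyp4f18, a leukotriene hydroxylase known from neutrophils, lay just under the minimum mean signal of 20 and was not tested with the rest. It read 0.9 to 4.0 in NC, 15.3 to 39.8 in MCD+HF and 21.0 to 33.3 in MCD+HF+Met livers, so the chow livers stood apart from all others. Without the minimum, its change with the diet was 1.62 (SE 0.22, limma adjusted p = 5.1e-05). The summed signal of 11 lymphocyte and neutrophil markers, of 14 listed, was 189 to 304 in NC, 343 to 563 in MCD+HF and 305 to 642 in MCD+HF+Met livers. Only 3 of the 11 were bright enough to be tested, S100a8, S100a9 and Csf3r, and all 3 were called higher with the diet. The means of the dim ones moved in both directions, so the sum does not show a rise of lymphocyte markers. The part of this sum in the level of Cyp4f18 was not tested. Cyp4f39 and Cyp4x1 stayed at means of 3.35 to 14.3 in all groups.

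On the authors' scaling, the enzymes that act with or after the omega-hydroxylases mostly fell with the diet, where 27.4% of all tested genes rose and 20.8% fell. Of 11 listed redox partners and dehydrogenases of this route, 10 were tested, and 7 were called lower and 1 higher (median -0.58), whereas after quantile normalization 2 were lower and 2 higher. The one that rose was Aldh3a2, the fatty aldehyde dehydrogenase, from 1192 ± 449 to 2373 ± 522 (SD, n = 4 each), by 1.03 (SE 0.19, limma adjusted p = 5.1e-04). Adh4, an alcohol dehydrogenase with activity toward omega-hydroxy fatty acids, fell by 1.51 (SE 0.18, limma adjusted p = 4.8e-06), and Adh1 and Aldh2 fell by 0.78 and 0.77. With metformin 1 of the 10 was called, Cyb5r3, the reductase of cytochrome b5, which rose by 0.31 (limma adjusted p = 0.0338) and was not called after quantile normalization.

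The peroxisomal steps that shorten dicarboxylic acids split. Of 18 tested genes of 20 listed, 5 rose and 8 fell with the diet (median -0.23), or 7 and 6 after quantile normalization, and none was called with metformin. Abcd2, a peroxisomal transporter of very long chain acyl-CoA, rose from 24.2 ± 21.4 to 234 ± 34.4 (SD, n = 4 each), by 3.00 (limma adjusted p = 3.4e-07). Acot4, a thioesterase for succinyl-CoA and dicarboxylyl-CoA, rose by 2.01 (adjusted p = 5.2e-07), and Pex11a, which divides peroxisomes, by 1.16 (adjusted p = 1.5e-05). Amacr, a racemase for branched acyl-CoA, fell by 1.5 (adjusted p = 1.9e-08). For comparison, 27.4% of all 11099 genes rose and 20.8% fell with the diet, and 1.63% rose and 2.34% fell with metformin.

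Among 21 tested targets of PPAR alpha outside the Cyp4 family, of 24 listed, 13 rose and 1 fell with the diet, with a median of 0.47. The largest rises were those of Pdk4, the kinase that shuts off pyruvate dehydrogenase, by 6.31 (SE 0.25), Cidec, a lipid droplet protein, by 4.77 (SE 0.18), Acot3, a peroxisomal thioesterase, by 4.03 (SE 0.40), and Cd36, a fatty acid transporter, by 3.08 (SE 0.10). Their limma adjusted p was at most 8.2e-07. In this list metformin gave 1 call, Cd36, from 2851 ± 117 to 1948 ± 241 (SD, n = 4 each), a change of -0.55 (limma adjusted p = 0.00986). With quantile normalization 3 of the 21 were lower with metformin. Several of these genes are also markers of fat storage, and the list is not specific to one receptor.

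The gene of the receptor itself fell. Ppara read 2146 to 3449 in NC and 1810 to 2156 in MCD+HF livers, a change of -0.54 (SE 0.15, limma adjusted p = 0.00761), and its partner Rxra changed by -0.49 (adjusted p = 0.0331). Ppargc1a, a coactivator, rose by 1.54 (SE 0.33, adjusted p = 0.00135), with MCD+HF livers from 206 to 983. Of 14 tested receptors and transcription factors, of 16 listed, 2 rose and 7 fell with the diet, or 1 and 8 after quantile normalization. The growth hormone receptor Ghr fell by 1.65 (SE 0.09, adjusted p = 2.9e-09), the repressor Bcl6 by 1.95 (SE 0.31, adjusted p = 1.2e-04) and the hepatocyte factor Hnf4a by 0.84 (SE 0.11, adjusted p = 1.7e-05). The glucocorticoid receptor Nr3c1 fell by 0.61 (adjusted p = 0.00209) and Stat5a by 0.45 (adjusted p = 0.0313), while Stat5b at -0.26 (adjusted p = 0.081), Rxrb at -0.32, Cux2 at -0.28, Nr1i3 at -0.09 and Pparg at 0.22 were not called. The pregnane receptor Nr1i2 rose by 0.59 (adjusted p = 0.0301). Ppard was under the minimum mean signal and was not tested, at 1.2 to 33.0 in NC, 21.4 to 26.0 in MCD+HF and 16.2 to 24.1 in MCD+HF+Met livers. Pparg was the 1 called with metformin, at 0.70 (SE 0.18, adjusted p = 0.039).

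Cyp4a12a is a male-typical gene, and it was set beside lists of other genes whose level differs between male and female mouse liver. All 14 tested male-typical genes, of 17 listed, fell with the diet (median -3.48), and none was called with metformin (median 0.05). Hsd3b5, a steroid dehydrogenase, read 2456 to 3377 in NC and 7.2 to 18.9 in MCD+HF livers, a change of -7.18 (SE 0.20, limma adjusted p = 1.7e-12). The organic anion transporter Slco1a1 fell by 6.23, and Moxd1 and the oxysterol hydroxylase Cyp7b1 changed by -4.52 and -4.43. Of 11 tested female-typical genes, of 20 listed, 9 rose with the diet and none was called lower (median 3.00), whereas none was called with metformin. The oestrogen sulfotransferase Sult1e1 rose by 5.52, Cyp2b9 by 4.86, Cyp3a44 by 4.17 and Acot3, which is on the PPAR alpha list too, by 4.03. Cyp4a12a was thus called with metformin while no gene of either list was, although 1 female-typical gene was higher with it under each of an offset of 32, quantile normalization and the replicate block. Slco1a1 at -0.80 (limma adjusted p = 0.0901) and Elovl3, a fatty acid elongase, at -0.84 (limma adjusted p = 0.0704) had negative values with metformin without being called. The difference between Cyp4a12a and the lists was not tested.

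**Figure D4:**
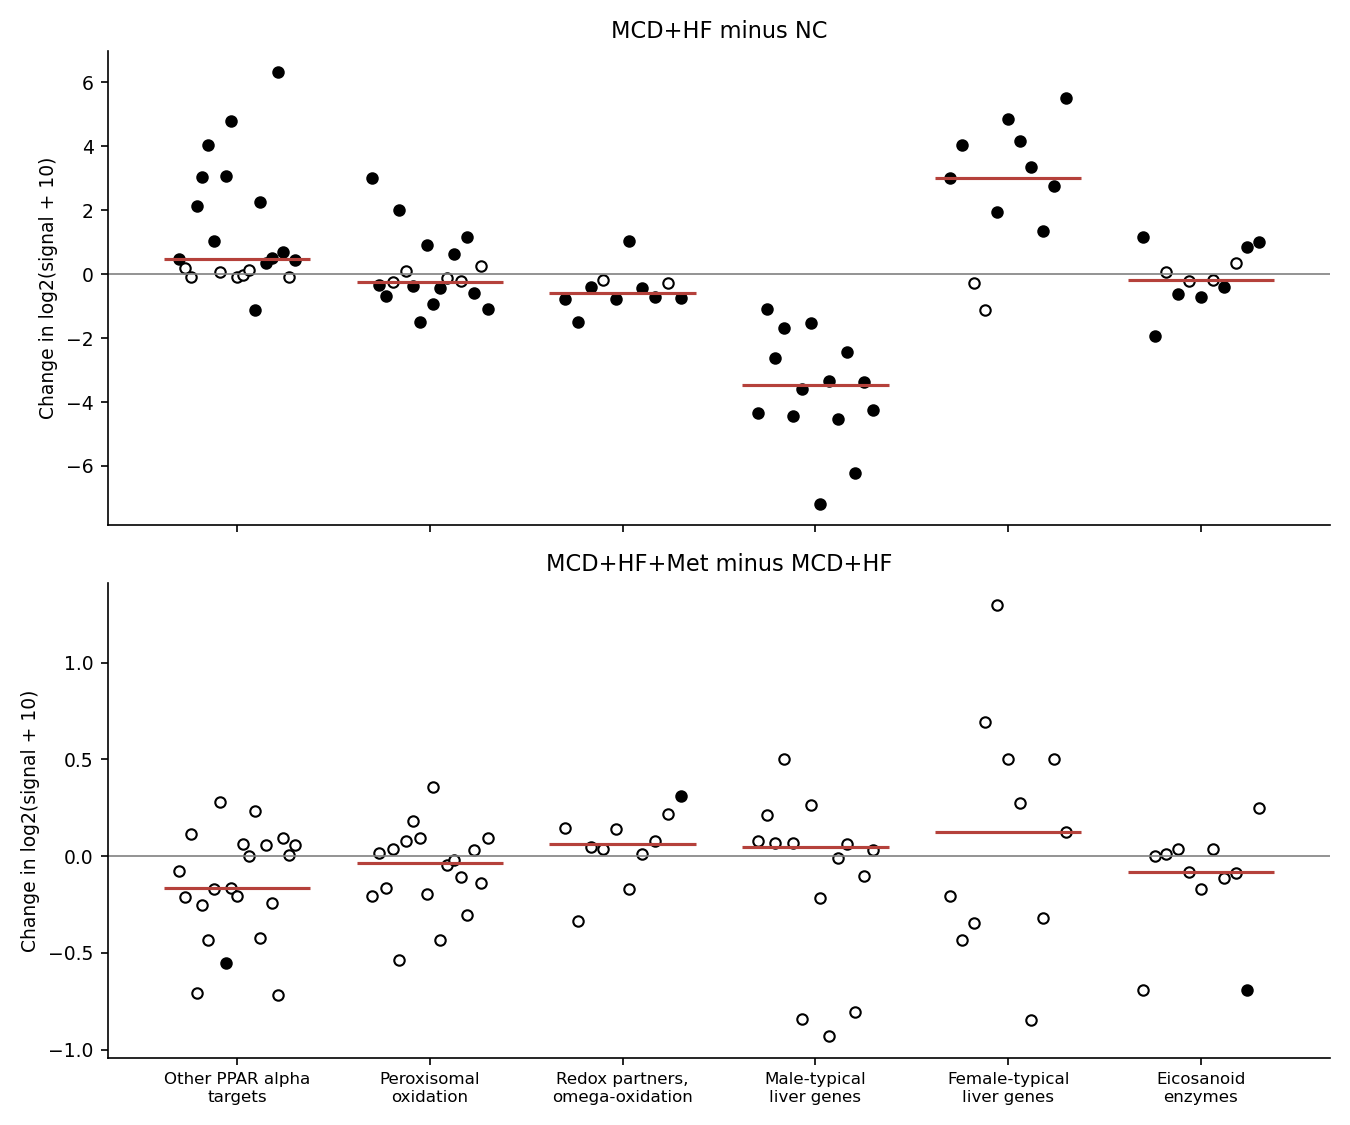
Change in log2(signal + 10) of the tested genes of 6 related lists with the MCD+HF diet (top) and with metformin added to it (bottom). Each point is a gene, filled when called at a limma adjusted p under 0.05, and the red line is the median of the list. Male-typical genes all lie below 0 on top with a median of -3.48 and female-typical genes have a median of 3.00, while in the lower panel, on a narrower axis, the medians lie near 0 and 3 points are filled.

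The eicosanoid enzymes and receptors, whose lipids the Cyp4f members inactivate, were mostly dim, and 11 of 19 listed were tested. With the diet 3 rose and 4 fell (median -0.19). The epoxygenase Cyp2j5 fell from 3958 ± 213 to 1029 ± 143 (SD, n = 4 each), by 1.94 (SE 0.12, limma adjusted p = 5.0e-09). Alox5ap, which serves the synthesis of leukotrienes, rose by 1.16 (SE 0.22), Ptgr1, a reductase that inactivates leukotriene B4 and prostaglandins, by 1.00 (SE 0.12), and the phospholipase Pla2g4a by 0.84 (SE 0.18). With metformin Pla2g4a fell by 0.69 (limma adjusted p = 0.0426), the 1 call of this list, which was lost after quantile normalization.

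For each member, the other genes with the most similar profile over the 12 arrays were found by the root mean square difference of the centred log2 values, among 11092 genes. Cyp4a12a was nearest to Elovl3, an elongase of very long chain fatty acids (difference 0.520), whose mean was 1634 on chow, 131 on the MCD+HF diet and 67 once metformin was added. Its change with metformin, -0.84, was not called (adjusted p = 0.0704). Cyp4f15 was nearest to Mettl26 (0.147), which was called higher with metformin, by 0.56 (limma adjusted p = 0.00789), as Cyp4f15 at 0.55 was not. Cyp4f14 was nearest to the sulfotransferase Sult2a8 (0.301) and the aldehyde oxidase Aox3 (0.328), Cyp4v3 to Hpd of tyrosine breakdown (0.110) and Nqo2 (0.115), and Cyp4f13 to Tmem205 (0.181) and Pcbd2 (0.186). The nearest genes to Cyp4a14 were Tob2 (0.443) and Cerk (0.453), and to the shared Cyp4a10 and Cyp4a31 probe set Ctsf (0.162) and Phf7 (0.188). The measure covers all arrays at once, so it is shaped by the 3 group means.

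The livers on the MCD+HF diet differed in more than the Cyp4 genes. Of 9 measured hepatocyte markers, of 11 listed, 8 were called lower with the diet (median -0.99), and their summed signal was 115444 to 133436 in NC, 59891 to 73703 in MCD+HF and 67149 to 83132 in MCD+HF+Met livers. The summed signal of 12 macrophage markers was 4034 to 5140, 7355 to 10072 and 3310 to 5849, and that of 10 stellate cell markers 2034 to 2597, 7040 to 9420 and 5336 to 7731. Called higher with the diet were 9 of 10 stellate cell, 7 of 12 macrophage, 4 of 5 tested cholangiocyte and 1 of 10 sinusoidal endothelial markers, and called lower were 3 of the sinusoidal endothelial and 2 of the macrophage markers, where 27.4% of all tested genes were higher and 20.8% lower. The highest signal of an array was 19413 to 23473 in NC, 9467 to 11830 in MCD+HF and 11539 to 13695 in MCD+HF+Met livers. The mean signal of an array, without trimming, was 193 to 203 in NC, 163 to 172 in MCD+HF and 167 to 177 in MCD+HF+Met livers. The hepatocyte values are given on the authors' scaling only and were not recomputed with quantile normalization. In whole liver, fewer hepatocytes and less RNA per hepatocyte cannot be told apart. The part of any of these differences, or of the scaling, in the changes of the Cyp4 genes was not tested. The falls of Cyp4a12a and Cyp4f14 with the diet, -2.86 and -3.93, lay below the hepatocyte median, and those of Cyp4v3, Cyp4f13 and Cyp4f15 lay closer to it at -1.21, -1.41 and -1.56, with no test of the difference.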

How the data were processed

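Liver RNA of 12 mice was hybridised by the authors to Affymetrix GeneChip arrays for the mouse genome, 1 per mouse. The deposited values are linear signal intensities from GCOS (version 1.1 in the paper's methods), which the authors scaled so that each array averages 100; the mean after leaving out 2% in each tail was 100 on every array. The probe pairs and the detection calls were not used here, and the number of arrays limits the precision.

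From these intensities log2(signal + 10) was computed, and the 22832 probe sets with a mean of at least 20 entered a single linear model with a mean per group, fitted by limma 3.58.1 under R 4.3.3 (lmFit, then eBayes using a variance trend; 9 residual degrees of freedom, Benjamini-Hochberg adjustment, threshold 0.05); limma was first tested on simulated data. Replicate numbers name different animals and were not used as pairs. Same-numbered arrays of different groups correlated at -0.134 to 0.251 in their deviations, and differently numbered ones at -0.214 to 0.132. Symbols came from the platform annotation, updated for 34741 of 34945 probe sets with 1 symbol through RefSeq identifiers of GRCm38.p6. A gene outside the family was read from its brightest probe set. Named were all members, all measured other Cyp4 genes and receptors, and up to 4 called genes per list and comparison with the largest change. The most similar profiles of each member, 1 or 2, were also named, with values for a few. The 3 tested lymphocyte and neutrophil markers were named outside these rules. The members and lists were chosen with earlier results of these data known. The methods' t-test, other offsets and filters, quantile normalization, a replicate block, other variance models, other probe sets and single arrays left out were tried as alternatives. All p-values rest on the variation between arrays, 1 per mouse, which holds both animal and array differences. Those of limma also draw on the variance trend over all tested probe sets.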

Additional observations from a re-analysis of the deposited data

Results flagged for a closer look

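In 2 of 30 groups of 4 livers (10 probe sets in 3 groups), 1 liver lay far from the other three relative to the range of its group, which chance gives in about 1 in 20 groups. MCD+HF+Met replicate 3 had 124.8 for Cyp4a12a, where the other three had 137.9 to 139.6, and it lay farther from the MCD+HF livers than they did. NC replicate 2 had 101.3 for the dimmer probe set of Cyp4a31 alone, where the other three had 38.9 to 44.5, and all livers on either MCD+HF diet were higher still.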

How the results depend on the processing

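Over 21 results (7 chosen probe sets under 3 comparisons) and their alternatives, 458 of 471 values kept their direction and their side of the threshold, 2 lost the call, 3 gained it and 8 changed sign. The probe set shared by Cyp4a10 and Cyp4a31 accounts for most of these. With quantile normalization it changed by 0.17 with the diet and 0.28 in MCD+HF+Met against NC, and the probe sets of Cyp4a31 alone gave 3.27 and 3.01, and 3.37 and 3.34; its fall with the diet was called with the replicate block (-0.43, adjusted p = 0.0273). The block changed no other call of a member. The change of Cyp4v3 with metformin, not called, was -0.027 with quantile normalization and -0.017 to 0.060 with single arrays left out, and the difference between Cyp4a14 and the probe set shared by Cyp4a10 and Cyp4a31 with metformin ranged from -0.13 to 0.0082 in the same way. Unadjusted and over 1.5-fold, but without the change calls that the methods also require, their t-test gave 898 metformin calls over all probe sets. Among the members it gave 1 higher and 5 lower with the diet and 0 and 1 with metformin, as in limma. After a Benjamini-Hochberg adjustment, which the methods do not apply, the count of members higher with the diet was 0 (Cyp4a14, adjusted p = 0.0523) and that of members lower with metformin was 0 (Cyp4a12a, adjusted p = 0.123). With another probe set of the gene, 2 were higher with the diet and 2 in MCD+HF+Met against NC. The cause was not tested for any of these. The total of metformin calls on the arrays, 786, was 254 when MCD+HF replicate 2 was left out, 297 when MCD+HF+Met replicate 2 was, and 8 with the methods' t-test after that adjustment.

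Counts within the related lists also depended on the scaling. With quantile normalization the redox partners had 2 higher and 1 lower in MCD+HF+Met against NC (1 and 7 otherwise), the PPAR alpha targets had none lower in either comparison with NC, 1 receptor was higher with the diet, 1 female-typical gene was lower with the diet and 1 higher with metformin (1 also with an offset of 32), and 5 instead of 8 peroxisomal genes were lower in MCD+HF+Met against NC. With the replicate block Cyb5r3 and Pla2g4a lost their calls with metformin, and 1 peroxisomal and 1 female-typical gene gained one.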
